A study of Mus musculus with 12 samples.

Results

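Retinoic acid handling was followed through 9 mouse genes: the degrading enzyme genes Cyp26a1, Cyp26b1 and Cyp26c1, the synthesizing enzyme genes Aldh1a2 and Aldh1a3, the retinaldehyde reductase gene Dhrs3, the binding protein genes Crabp1 and Crabp2, and the receptor gene Rarb. They were picked by symbol from the 55487 genes of a count table. All 9 passed the filter on low counts, which kept 18109 genes for testing. Cyp26b1 and Cyp26c1 were known from earlier results of these data to be among the largest day 2 differences, so the day 2 values of the 9 genes are given below as a description, without a p-value for any of them. That day 2 was the only comparison behind the choice is an assumption. Earlier results were also known when the further gene lists were chosen. The p-values printed for day 4 and for other genes may therefore not be independent of the choice.

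The libraries came from embryoid bodies, aggregates that differentiate in suspension, made from mouse epiblast stem cells (EpiSCs). EpiSCs are pluripotent cells that resemble the epiblast of the embryo after implantation. These were derived from embryonic stem cells and named Mixl1DOX. They carry FLAG-Mixl1, a tagged copy of the primitive streak homeobox gene Mixl1 that doxycycline switches on. D3Dox_d4 and D1Dox_d2 received 1 µg/mL doxycycline and were collected on day 4 and day 2, and NoDox_d4 and NoDox_d2 are the day 4 and day 2 libraries without the drug, with 3 libraries in each of the 4 groups. What the number after D stands for in the doxycycline group names is not stated. All groups carry the transgene and grew in medium with fetal calf serum. No doxycycline-treated cells without the transgene were analysed here, so effects of the drug and of Mixl1 cannot be told apart. Nothing in the labels says that replicates were separate cultures, and p-values then measure the spread between libraries, which may be technical.

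Retinoic acid is made from vitamin A in steps. Retinol is oxidized to retinaldehyde, and ALDH1A enzymes oxidize retinaldehyde to retinoic acid, while CYP26 enzymes break retinoic acid down. CRABP proteins carry it in the cytoplasm, and RAR receptors, paired with RXR receptors, bind DNA at response elements and switch genes on when the ligand arrives. In the gastrulating mouse embryo, Aldh1a2 in the mesoderm and Cyp26 enzymes in the tail bud and anterior neural plate set where retinoic acid acts, and Hox genes of the hindbrain are among its targets.

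Rarb and Cyp26a1 are textbook direct targets of the receptors and carry a response element near their start sites. Such an element, called DR5, is a pair of 6-base half-sites in the same direction with 5 bases between them. Because these elements are the link from retinoic acid to the RNA of both genes, the 100 bases before each RefSeq start (GRCm38.p6) are printed here, 5′ to 3′ on the gene's strand, with the DR5 in capitals. The Rarb window lies at chr14:16575477-16575576 on the minus strand and the Cyp26a1 window at chr19:37697708-37697807 on the plus strand.
Rarb: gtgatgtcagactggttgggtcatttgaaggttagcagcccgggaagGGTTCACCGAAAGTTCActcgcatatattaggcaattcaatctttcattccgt
Cyp26a1: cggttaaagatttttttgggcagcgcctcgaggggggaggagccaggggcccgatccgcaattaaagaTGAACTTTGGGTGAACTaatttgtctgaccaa

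The Rarb element lies 53 to 37 bases before the start. That start lies inside the counted Rarb gene, which reaches to 16819156 on the minus strand, and the counts cover exons of the whole gene. The Cyp26a1 element lies 32 to 16 bases before the start and is read on the opposite strand, as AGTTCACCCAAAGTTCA. The search took as a half-site the standard form AGGTCA, its variant AGTTCA as in both elements above, the variant GGGTCA, or the variant GGTTCA as in Rarb, on both strands and in any pairing, from 250 bases before to 50 bases after each start. A DR5 was found in 32 of 32851 windows of all genes (0.0974%) and in 2 of the 9 windows that cover 7 of the retinoic acid genes. The same half-sites with 1 or 2 bases between them occurred in 0.222% and 0.268% of all windows and in 0 of the 9. The 2 windows with a DR5 are those of Rarb and Cyp26a1, genes already known to carry it. The half-sites searched include those of both elements, so these counts are no test of enrichment. A match describes these letters and says nothing about binding in these cells. Although both genes hold a DR5, their profiles across the 12 libraries were unlike, as the values below show.

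Reads assigned to genes ranged between 24100487 and 28020036 per library, so that 3 counts corresponded to 0.106 to 0.130 CPM, counts scaled to a fixed library total with TMM factors. Mixl1 itself stood at 417 to 478 CPM in D3Dox_d4 and 362 to 392 CPM in D1Dox_d2, against 1.11 to 1.83 CPM in NoDox_d4 and 91.0, 0.593 and 1.15 CPM in NoDox_d2. The library labelled NoDox_d2 replicate 1 thus held Mixl1 RNA, and NoDox_d4 replicate 1 was at 1.62 CPM. Both libraries numbered 1 without doxycycline stood apart from replicates 2 and 3 of their groups (Pearson's r of log2 CPM 0.957 to 0.961, against 0.990 and 0.991 between replicates 2 and 3). Each of the 9 retinoic acid genes lay outside the range of replicates 2 and 3 in both of them, so each of their doxycycline fold changes is given with and without both. The share of all tested genes outside that range was not computed, so this is not read as a trait of the 9. T, the brachyury gene of the streak, was at 1261 CPM in NoDox_d2 replicate 1 and at 100.1 and 142 CPM in replicates 2 and 3. The somite gene Meox1 was at 235 CPM in NoDox_d4 replicate 1 and at 36.2 and 37.6 CPM in replicates 2 and 3. Summed over 10 presomitic and somite markers, these libraries held 482, 304 and 321 CPM. The markers did not all go this way, as Pax3 and Dll1 were lowest in replicate 1. Summed over 10 EpiSC markers, levels were 539 to 589 CPM in D3Dox_d4, 741 to 805 CPM in D1Dox_d2, 546 to 1010 CPM in NoDox_d4 and 1473 to 1566 CPM in NoDox_d2.

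**Figure D1:**
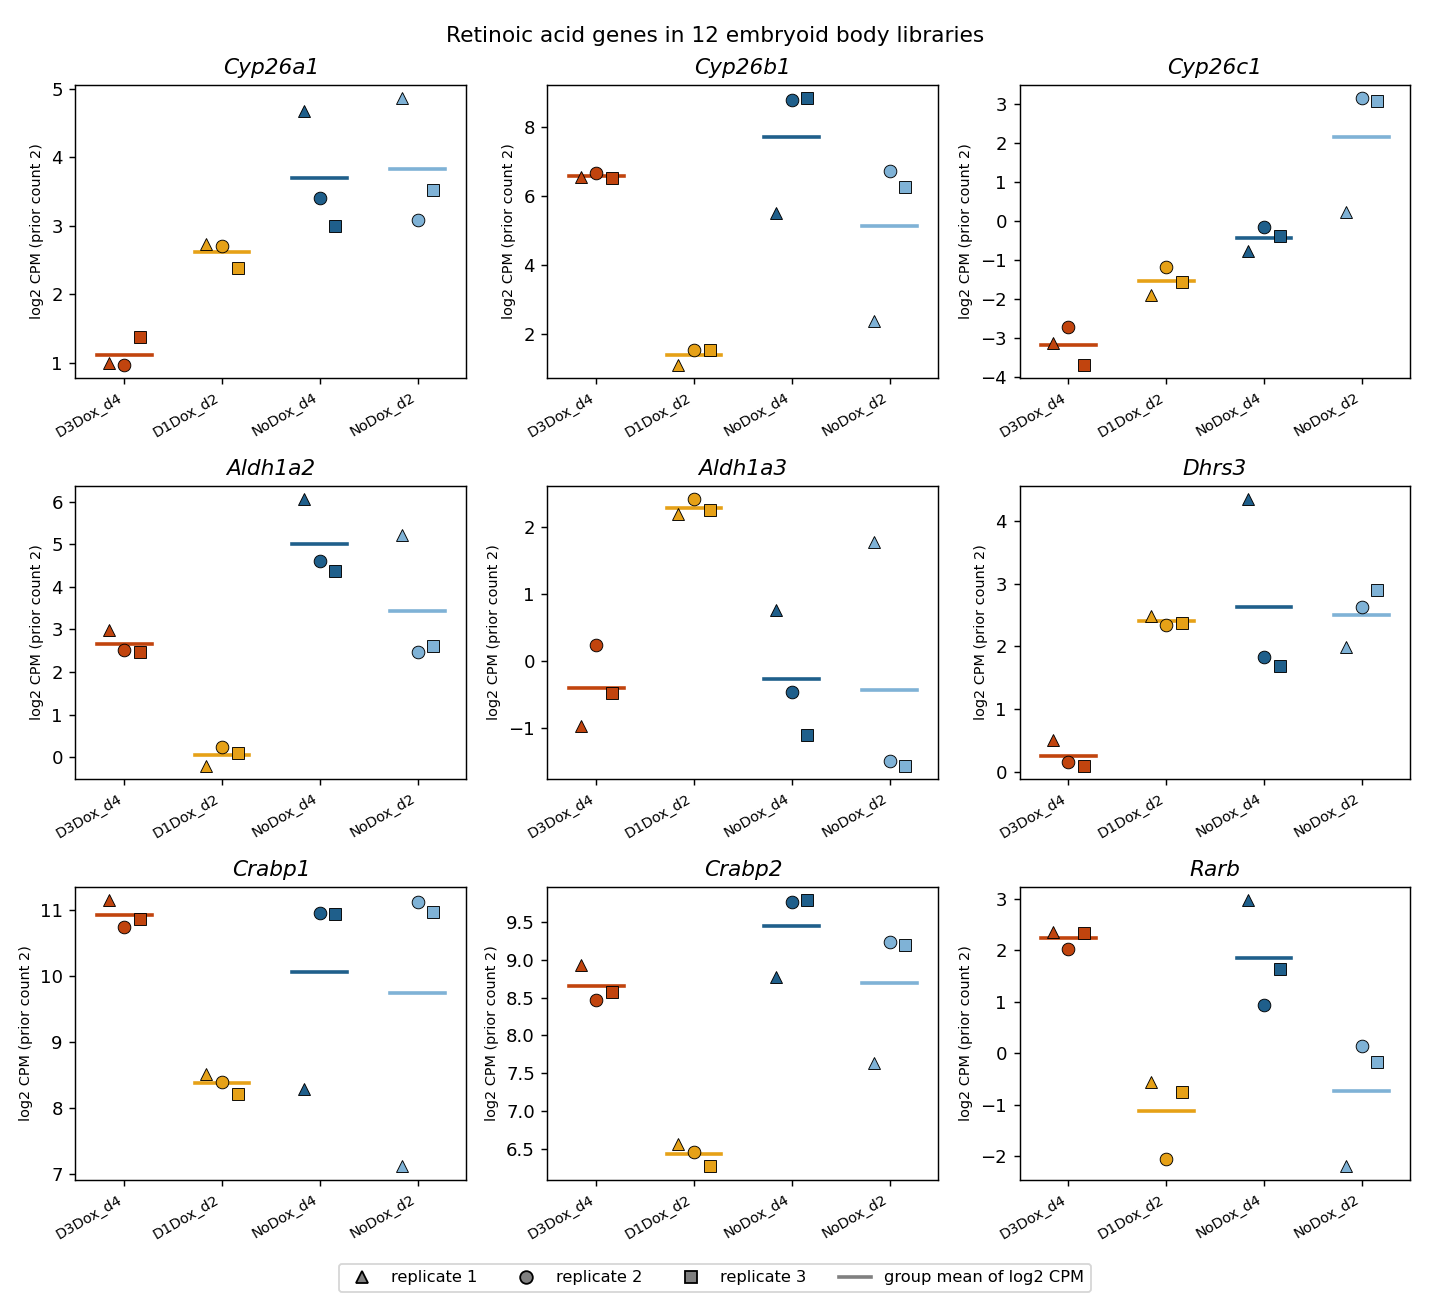
Each panel plots log2 CPM of 1 gene (prior count of 2) in the 12 libraries, with groups along the horizontal axis, symbols for the replicate numbers and a line at each group mean. Triangles of both NoDox groups lie outside their circles and squares in all 9 panels, which was not compared with the share over all genes. The lowest Cyp26c1 point in D3Dox_d4 is a library with 0 counts.

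Of the CYP26 genes, Cyp26a1 and Cyp26c1 fell with doxycycline on day 4, and Cyp26b1 did not pass with all 12 libraries. On day 2 all 3 were lower in every D1Dox_d2 library than in any NoDox_d2 library. Groups did not overlap for 40.6% of all tested genes at day 4 and 46% at day 2. Cyp26a1, the family member of the early embryo and tail bud, measured 1.92, 1.88 and 2.51 CPM in D3Dox_d4, against 25.5, 10.5 and 7.88 CPM in NoDox_d4. On day 2 it measured 6.59, 6.47 and 5.16 CPM in D1Dox_d2, against 29.0, 8.42 and 11.4 CPM in NoDox_d2. All 6 doxycycline libraries lay below all 6 without it, and replicate 1 was the highest of each NoDox group. At day 4 Cyp26a1 fell by 2.80 ± 0.52 on the log2 scale (± standard error, SE, from the fit; edgeR adjusted p = 0.00249), and by 2.13 ± 0.21 without both NoDox replicate 1 libraries. The day 2 log2 difference was −1.42 ± 0.48, and −0.71 ± 0.19 without those libraries.

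Cyp26b1, which degrades retinoic acid in the hindbrain and limb of the mouse embryo, had the widest range of the 9 genes, 7.72 log2 units over the 12 libraries. It lies at chr6:84571414-84593908 on the minus strand (GRCm38). D3Dox_d4 held 93.9, 102 and 91.3 CPM, against 45.6, 437 and 457 CPM in NoDox_d4. D1Dox_d2 held 2.08, 2.81 and 2.82 CPM, against 5.12, 105 and 77.0 CPM in NoDox_d2. D1Dox_d2 had the lowest levels, below every NoDox_d2 library, and D3Dox_d4 lay between the low replicate 1 and the high replicates 2 and 3 of NoDox_d4. The day 4 log2 difference was −1.71 ± 0.86 and did not pass (edgeR adjusted p = 0.181). With NoDox_d4 replicate 1 left out it was −2.22 and passed (adjusted p = 0.0451), and it passed at −1.70 with NoDox_d2 replicate 1 left out (adjusted p = 0.0438). Without both NoDox replicate 1 libraries the day 4 value was −2.22 ± 0.12 and passed (edgeR adjusted p = 2.89e-09). At day 2 the log2 difference was −4.60 ± 1.03, and −5.16 ± 0.15 without both NoDox replicate 1 libraries.

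Cyp26c1 neighbours Cyp26a1 on chromosome 19, at 37685581 to 37693398 before 37697798 to 37701536 on the plus strand (GRCm38). It had 1, 2 and 0 counts in D3Dox_d4 and 51 counts in all in NoDox_d4, at 0.513, 0.813 and 0.692 CPM. The ratio of summed counts, scaled for library size, was 0.0559 (95% interval 0.0112 to 0.173, counting error only). On day 2 it measured 0.189, 0.366 and 0.260 CPM in D1Dox_d2, against 1.09, 8.81 and 8.40 CPM in NoDox_d2. Groups did not overlap on either day, and of the 12 libraries only NoDox_d2 replicates 2 and 3 were above 2 CPM. At day 4 Cyp26c1 fell by 4.001 ± 1.004 on the log2 scale (edgeR adjusted p = 0.0137; by 4.16 without both NoDox replicate 1 libraries), but the call was lost without D3Dox_d4 replicate 3, at −3.501 (adjusted p = 0.0526), and the value was −4.83 without D3Dox_d4 replicate 2. The day 2 log2 difference was −4.47 ± 0.72, and −4.97 ± 0.31 without both NoDox replicate 1 libraries.

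Of the synthesis genes, Aldh1a2 was lower with doxycycline on both days. Aldh1a2 makes most of the retinoic acid of the early mouse embryo, chiefly in somites and other mesoderm, and lies at chr9:71215789-71296243 on the plus strand. It measured 7.81, 5.60 and 5.45 CPM in D3Dox_d4, against 66.7, 24.4 and 20.6 CPM in NoDox_d4. On day 2 it measured 0.795, 1.10 and 0.996 CPM in D1Dox_d2, against 37.1, 5.45 and 6.02 CPM in NoDox_d2. Neither pair of groups overlapped, and replicate 1 was 6.47 times the mean of replicates 2 and 3 in NoDox_d2 and 2.96 times it in NoDox_d4. The day 4 fall of 2.57 ± 0.69 on the log2 scale passed (edgeR adjusted p = 0.0193), as did the fall of 1.84 ± 0.16 without both NoDox replicate 1 libraries. It did not pass without D3Dox_d4 replicate 2 (adjusted p = 0.0725) or 3 (0.0760) or NoDox_d4 replicate 1 alone (0.0619). At day 2 the log2 difference was −4.07 ± 0.79, and −2.58 ± 0.22 without both NoDox replicate 1 libraries. Summed over the 10 presomitic and somite markers, levels were 203 to 223 CPM in D3Dox_d4 against 304 to 482 CPM in NoDox_d4, and 29.9 to 37.0 CPM in D1Dox_d2 against 151 to 181 CPM in NoDox_d2. Of the 9 that could be tested, 4 fell and 1 rose at day 4, and 5 fell and 1 rose at day 2. Of all tested genes, 23.5% were called at day 4 and 28.4% at day 2. Msgn1 was at 0 in 1 D3Dox_d4 library. Fewer cells of a type and less RNA per cell cannot be told apart in bulk libraries, and the part of cell makeup in the Aldh1a2 differences was not tested.

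Aldh1a3, which makes retinoic acid in the eye and nasal region of the mouse embryo, had its highest levels in D1Dox_d2. It lies at chr7:66390890-66427517 on the minus strand. D1Dox_d2 held 4.51, 5.29 and 4.72 CPM, against 3.35, 0.277 and 0.260 CPM in NoDox_d2. D3Dox_d4 held 0.434, 1.11 and 0.637 CPM, against 1.62, 0.651 and 0.384 CPM in NoDox_d4. The day 2 groups did not overlap, although NoDox_d2 replicate 1 came close to D1Dox_d2, and the day 4 groups did. At day 2 the log2 difference was 1.88 ± 0.81, and 4.14 ± 0.40 without both NoDox replicate 1 libraries. The day 4 log2 difference of −0.28 ± 0.87 did not pass (edgeR adjusted p = 0.855), and it was 0.49 without those libraries. Beside the high Aldh1a3 level in D1Dox_d2 stood markers of fibroblasts, which serve as feeder cells in pluripotent cultures. Of 13 such markers, 11 rose and 0 fell at day 2, where 28.4% of all tested genes were called. Their sums were 2133 to 2636 CPM in D1Dox_d2 against 405 to 590 CPM in NoDox_d2. At day 4, 2 rose and 4 fell, where 23.5% of all tested genes were called. The sums were then 589 to 698 CPM in D3Dox_d4 against 260 to 778 CPM in NoDox_d4. The part of these markers in the Aldh1a3 difference was not tested.

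Dhrs3, which returns retinaldehyde to retinol and so limits the supply for synthesis, was lower with doxycycline on day 4. It lies at chr4:144892827-144928209 on the plus strand. It measured 1.34, 1.03 and 0.995 CPM in D3Dox_d4, against 20.3, 3.50 and 3.15 CPM in NoDox_d4. D1Dox_d2 measured 5.49, 5.00 and 5.11 CPM, against 3.88, 6.09 and 7.36 CPM in NoDox_d2. All D3Dox_d4 libraries lay below all others, and the day 2 groups overlapped. At day 4 Dhrs3 fell by 2.995 ± 0.64 on the log2 scale (edgeR adjusted p = 0.00597), or by 1.56 ± 0.21 without both NoDox replicate 1 libraries. The day 2 log2 difference was −0.15 ± 0.58, and −0.38 ± 0.17 without them.

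The binding protein genes were the most abundant of the set. Crabp1 lies at chr9:54764748-54773110 and Crabp2 at chr3:87948666-87953376, both on the plus strand. Crabp1 measured 2277, 1716 and 1859.6 CPM in D3Dox_d4, against 311, 1976 and 1970.1 CPM in NoDox_d4. D1Dox_d2 measured 366, 335 and 297 CPM, against 138, 2234 and 2012 CPM in NoDox_d2. Apart from the low replicate 1 libraries, the NoDox libraries and D3Dox_d4 overlapped, and D1Dox_d2 lay well below them. The day 4 log2 difference of 0.46 ± 0.78 did not pass (edgeR adjusted p = 0.719) and was −0.02 ± 0.12 without both NoDox replicate 1 libraries. At day 2 the log2 difference was −2.14 ± 0.81, and −2.68 ± 0.12 without them.

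Crabp2, whose product hands retinoic acid to the receptors in the nucleus, measured 489, 353 and 380.3 CPM in D3Dox_d4, against 438, 873 and 889 CPM in NoDox_d4. On day 2 it measured 94.5, 87.6 and 76.8 CPM in D1Dox_d2, against 199, 604 and 587 CPM in NoDox_d2. The day 2 groups did not overlap, and at day 4 D3Dox_d4 replicate 1 lay above NoDox_d4 replicate 1. The day 4 log2 difference of −0.85 ± 0.36 did not pass (edgeR adjusted p = 0.118). It passed without NoDox_d4 replicate 1, at −1.11 (adjusted p = 0.0396), and without NoDox_d2 replicate 1, at −0.84 (adjusted p = 0.0160). With both of these libraries left out the day 4 value was −1.11 ± 0.12 and passed (edgeR adjusted p = 4.70e-06). At day 2 the log2 difference was −2.42 ± 0.38, and −2.79 ± 0.12 without both NoDox replicate 1 libraries. Summed neural and hindbrain markers, 10 genes, were at 591 to 695 CPM in D3Dox_d4 against 554 to 1214 CPM in NoDox_d4, and at 287 to 310 CPM in D1Dox_d2 against 505 to 748 CPM in NoDox_d2. At day 4, 4 of these 10 rose and 1 fell, where 23.5% of all tested genes were called. At day 2, 4 rose and 5 fell, where 28.4% of all tested genes were called. The part of these markers in the Crabp1, Crabp2 and Cyp26b1 differences was not tested.

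Rarb, the receptor gene with the DR5 shown above, was higher in every day 4 library than in any day 2 library. It lies at chr14:16430839-16819156 on the minus strand. D3Dox_d4 held 5.06, 4.02 and 4.97 CPM, against 7.81, 1.83 and 3.04 CPM in NoDox_d4. D1Dox_d2 held 0.606, 0.163 and 0.520 CPM, against 0.141, 1.03 and 0.818 CPM in NoDox_d2. The groups of each day overlapped, and the lowest day 4 library was NoDox_d4 replicate 2. At day 4 the log2 difference of 0.15 ± 0.59 did not pass (edgeR adjusted p = 0.889), but without both NoDox replicate 1 libraries it was 0.94 ± 0.30 and passed (adjusted p = 0.0226). The day 2 log2 difference was −0.60 ± 0.73, and −1.09 ± 0.43 without them. The counting used no strand option, and 38.4% of the exon bases of Rarb are shared with genes on the opposite strand, chiefly Top2b at a mean of 372 CPM in D3Dox_d4, 242 CPM in D1Dox_d2, 381 CPM in NoDox_d4 and 258 CPM in NoDox_d2. Rarb counts are therefore uncertain.

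In the transcriptome-wide test at day 4, 4 of the 9 genes fell (Cyp26a1, Cyp26c1, Aldh1a2 and Dhrs3) and 0 rose, where 23.5% of the 18109 tested genes were called, 13.4% higher and 10.2% lower. The median log2 difference of the 9 was −1.71, against −0.03 over all tested genes. At day 2, 5 were called lower (the 3 CYP26 genes, Aldh1a2 and Crabp2) and 0 higher, where 28.4% of all tested genes were called, 14.9% higher and 13.4% lower. The day 2 median was −2.14, against −0.03 over all tested genes. Nothing is read from the day 2 count, because that comparison helped to choose the genes. Without both NoDox replicate 1 libraries the counts in either direction became 7 of 9 at day 4 (38.5% of all genes tested) and 8 of 9 at day 2 (53.2%). Among these, Rarb was higher at day 4 (0.94 ± 0.30) and Aldh1a3 at day 2 (4.14 ± 0.40), and the rest were lower.

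**Figure D2:**
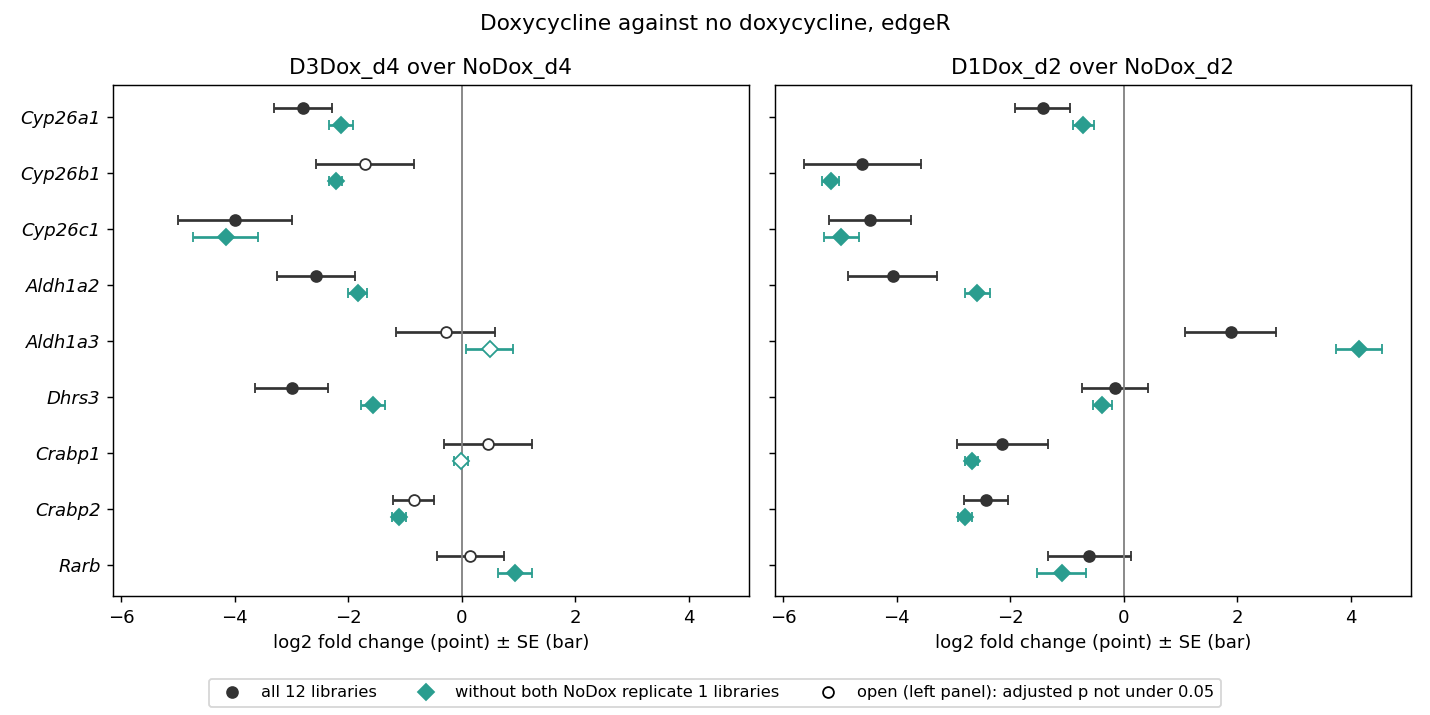
Log2 fold changes of the 9 genes with doxycycline over without (points, with bars of ± SE), day 4 on the left and day 2 on the right; black circles use all 12 libraries, green diamonds leave out both NoDox replicate 1 libraries, and open symbols in the day 4 panel have an adjusted p not under 0.05. Day 2 points are all filled and carry no test. Aldh1a2 and Cyp26a1 lie closer to 0 in green on both days, and the day 2 Aldh1a3 value is 1.88 in black and 4.14 in green.

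The day 4 effect minus the day 2 effect contains the day 2 values that helped to choose the genes, so for the 9 it is a description as well. With all 12 libraries 1 of the 9 was called, Dhrs3 at −2.84 ± 0.86 on the log2 scale, where 12.9% of all tested genes were called, 6.66% higher and 6.24% lower, and nothing is read from that count. Cyp26b1 (2.89 ± 1.28) and Crabp1 (2.59 ± 1.12) had positive differences, with wide errors. Without both NoDox replicate 1 libraries the differences were 2.94 ± 0.20 for Cyp26b1, 2.66 ± 0.17 for Crabp1, 2.03 ± 0.53 for Rarb and 1.68 ± 0.17 for Crabp2. They were then −3.65 ± 0.61 for Aldh1a3, −1.42 ± 0.28 for Cyp26a1 and −1.18 ± 0.27 for Dhrs3.

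Between NoDox_d4 and NoDox_d2 the question is how the genes differ with time when the transgene is not induced. These NoDox_d2 libraries also served the day 2 comparison that helped to choose the genes, so the values are not independent of that choice. Rarb rose by 2.68 ± 0.66 on the log2 scale (edgeR adjusted p = 0.0249) and Cyp26c1 differed by −3.17 ± 0.65 (−3.51 ± 0.31 without both NoDox replicate 1 libraries), the only 2 of 9 called, where 10.6% of all tested genes were called, 5.09% higher and 5.55% lower. With the replicate number as a block, a pairing that no label states, the Rarb value was 2.48 (edgeR adjusted p = 0.0541), so that 1 of 9 was called. It was also lost without NoDox_d2 replicate 3 (adjusted p = 0.0598). In a fit of the 6 NoDox libraries with the block, chosen after the data were seen, 4 of 9 were called, where 11.6% of all genes were: Cyp26b1 rose by 2.55 (adjusted p = 0.00337), Aldh1a2 by 1.56 (0.0156) and Crabp2 by 0.74 (0.0219), with Cyp26c1 lower, whereas Rarb did not pass (0.112). Without both NoDox replicate 1 libraries 6 were called (24.4% of all genes), with Rarb at 1.40 and Aldh1a2 at 1.97. Dhrs3 then fell by 1.02 (adjusted p = 0.00168), whereas its value with all libraries was 0.64 ± 0.58.

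Per kilobase of exon, the Crabp1 mean was the highest and the Crabp2 mean next in every group, with overlapping ranges in both NoDox groups. In D3Dox_d4 they averaged 2432 ± 364 and 308 ± 54.6 CPM per kilobase (SD, n = 3), ahead of Cyp26b1 at 17.9 ± 1.09. In D1Dox_d2 the means were 415 ± 42.7 and 65.3 ± 6.78, and Cyp26a1 came next at 3.06 ± 0.401. Cyp26b1 was the leading CYP26 gene in D3Dox_d4 and Cyp26a1 in D1Dox_d2. In the NoDox groups Cyp26b1 came after them, at 58.5 ± 43.3 in NoDox_d4 and 11.7 ± 9.62 in NoDox_d2, but its range overlapped that of the next gene (Aldh1a2 in NoDox_d4, Cyp26a1 in NoDox_d2). The lowest places went to Cyp26c1 in D3Dox_d4 (0.0210), Rarb in D1Dox_d2 (0.0816) and NoDox_d2 (0.126) and Aldh1a3 in NoDox_d4 (0.191). In D1Dox_d2 Cyp26b1 overlapped Aldh1a2 and Cyp26c1 overlapped Rarb, in D3Dox_d4 only Cyp26a1 and Rarb overlapped as neighbours, and in both NoDox groups most neighbours did.

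The wider pathway was read from 51 further genes, of which 46 were tested; Rbp7, Rdh1, Bco1, Aldh8a1 and Stra8 did not pass the filter. At day 4, 7 rose and 7 fell, and at day 2, 5 rose and 7 fell, with medians of −0.17 and −0.23 on the log2 scale. The 46 genes were called in 30.4% of cases at day 4 and 26.1% at day 2, near the 23.5% and 28.4% of all tested genes. Without both NoDox replicate 1 libraries, 24 were called at day 4 (52.2%, against 38.5% of all genes) and 26 at day 2 (56.5%, against 53.2%). None of the 5 tested genes for retinol uptake, transport and storage passed in either comparison. Among the retinol and retinaldehyde oxidoreductases, Rdh10, which performs the first oxidation step in the mouse embryo, measured 17.8 to 22.6 CPM in D3Dox_d4 against 36.9 to 77.4 CPM in NoDox_d4, and fell by 1.37 ± 0.24 (edgeR adjusted p = 0.00199). At day 2 it measured 57.7 to 64.2 CPM in D1Dox_d2 and 57.9 to 74.2 CPM in NoDox_d2, a difference of −0.05 ± 0.24 that did not pass (adjusted p = 0.897). Rdh11 rose on both days, by 0.61 ± 0.19 at day 4 (adjusted p = 0.0383) and 0.59 ± 0.19 at day 2 (adjusted p = 0.0367), and both calls were lost when any 1 D3Dox_d4 or D1Dox_d2 library was left out (adjusted p = 0.0535 to 0.104).

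Aldh1a1, another retinaldehyde dehydrogenase gene, had 62, 73 and 70 counts in D1Dox_d2, against 5, 0 and 0 counts in NoDox_d2, and rose (edgeR adjusted p = 0.000437). Its neighbour in the family, Aldh1a7, rose by 1.54 ± 0.46 at day 2 (adjusted p = 0.0289), a call lost without any 1 D1Dox_d2 library or NoDox_d2 replicate 3 (adjusted p = 0.0678 to 0.0900). Neither passed at day 4, where Aldh1a1 stood at 0.181 to 0.406 CPM in D3Dox_d4 and 0.0813 to 0.346 CPM in NoDox_d4. Aldh1a1, Aldh1a3 and Aldh1a7 thus had their highest group means in D1Dox_d2, where Aldh1a2 had its lowest.

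Of the other receptor genes, Rara rose at day 4, to 75.1 to 77.9 CPM in D3Dox_d4 against 42.7 to 51.1 CPM in NoDox_d4 (0.75 ± 0.10, edgeR adjusted p = 0.000248). Its day 2 rise was smaller (0.31 ± 0.10, adjusted p = 0.0326) and was lost without any 1 D1Dox_d2 library or without NoDox_d2 replicate 1 or 3, among others (adjusted p = 0.0582 to 0.132). Rxrg rose by 1.69 ± 0.39 (adjusted p = 0.00872) and Rxra fell by 0.61 ± 0.15 (adjusted p = 0.0137) at day 4, and Rxrb fell by 0.59 ± 0.11 at day 2 (adjusted p = 0.00323). The Rxra call was lost without D3Dox_d4 replicate 1 (adjusted p = 0.0517) or NoDox_d4 replicate 3 (0.0604). Of the 8 coregulator genes, the corepressor gene Nrip1 fell by 0.82 ± 0.21 (adjusted p = 0.0165) and the coactivator gene Ncoa1 rose by 0.66 ± 0.22 (adjusted p = 0.0495) at day 4. The Nrip1 call was lost without D3Dox_d4 replicate 1 (adjusted p = 0.0660) or 2 (0.0583), and the Ncoa1 call under 9 of the 12 omissions of a library (0.0549 to 0.153). None of the 8 passed at day 2.

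Genes known to be induced by retinoic acid were called in both directions. Of the 17 tested, 3 rose and 4 fell at day 4, where 13.4% of all tested genes rose and 10.2% fell. At day 2, 1 rose and 6 fell, where 14.9% of all tested genes rose and 13.4% fell. The medians of the 17 were −0.80 on the log2 scale at day 4 and −1.09 at day 2, against −0.03 over all tested genes. On day 2 only Ret had a positive value. Ret, which encodes a receptor tyrosine kinase of enteric and autonomic neurons, rose on both days. It measured 74.6, 93.8 and 93.9 CPM in D3Dox_d4, against 13.8, 10.3 and 13.3 CPM in NoDox_d4, and 31.4, 30.7 and 31.5 CPM in D1Dox_d2, against 2.97, 6.32 and 7.55 CPM in NoDox_d2. The rises were 2.81 ± 0.26 (edgeR adjusted p = 2.64e-05) and 2.48 ± 0.27 (adjusted p = 6.70e-05). Hoxb1, a hindbrain Hox gene with a known retinoic acid response, measured 23.5, 21.2 and 20.9 CPM in D1Dox_d2, against 79.1, 73.4 and 75.1 CPM in NoDox_d2, a fall of 1.79 ± 0.13 (adjusted p = 4.06e-06) with replicate 1 in place. At day 4 Hoxb1 overlapped between the groups, at 51.1 to 62.3 CPM in D3Dox_d4 and 47.3 to 67.1 CPM in NoDox_d4, and the effects differed between days by 1.75 ± 0.18 (adjusted p = 0.000335). Hoxa4 fell by 1.27 ± 0.19 at day 2 (edgeR adjusted p = 0.000614) but rose by 0.64 ± 0.18 at day 4 (adjusted p = 0.0232). Its effects differed by 1.91 ± 0.26 (adjusted p = 0.00146). Nedd9 and Zfp703, both reported as retinoic acid responsive in other systems, fell at day 4 by 1.62 ± 0.26 (adjusted p = 0.000978) and 0.98 ± 0.16 (adjusted p = 0.00132). Over all 46 genes the effect was higher on day 4 for 3 and lower for 5, namely Rdh10, Nrip1, Zfp703, Aldh1a1 and Aldh1a7 (17.4% called, against 12.9% of all tested genes). The calls of Rdh10, Nrip1, Zfp703 and Aldh1a7 were lost in several omissions of 1 library (adjusted p = 0.0509 to 0.0767), and that of Aldh1a1 without NoDox_d4 replicate 3 (0.0501).

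**Figure D3:**
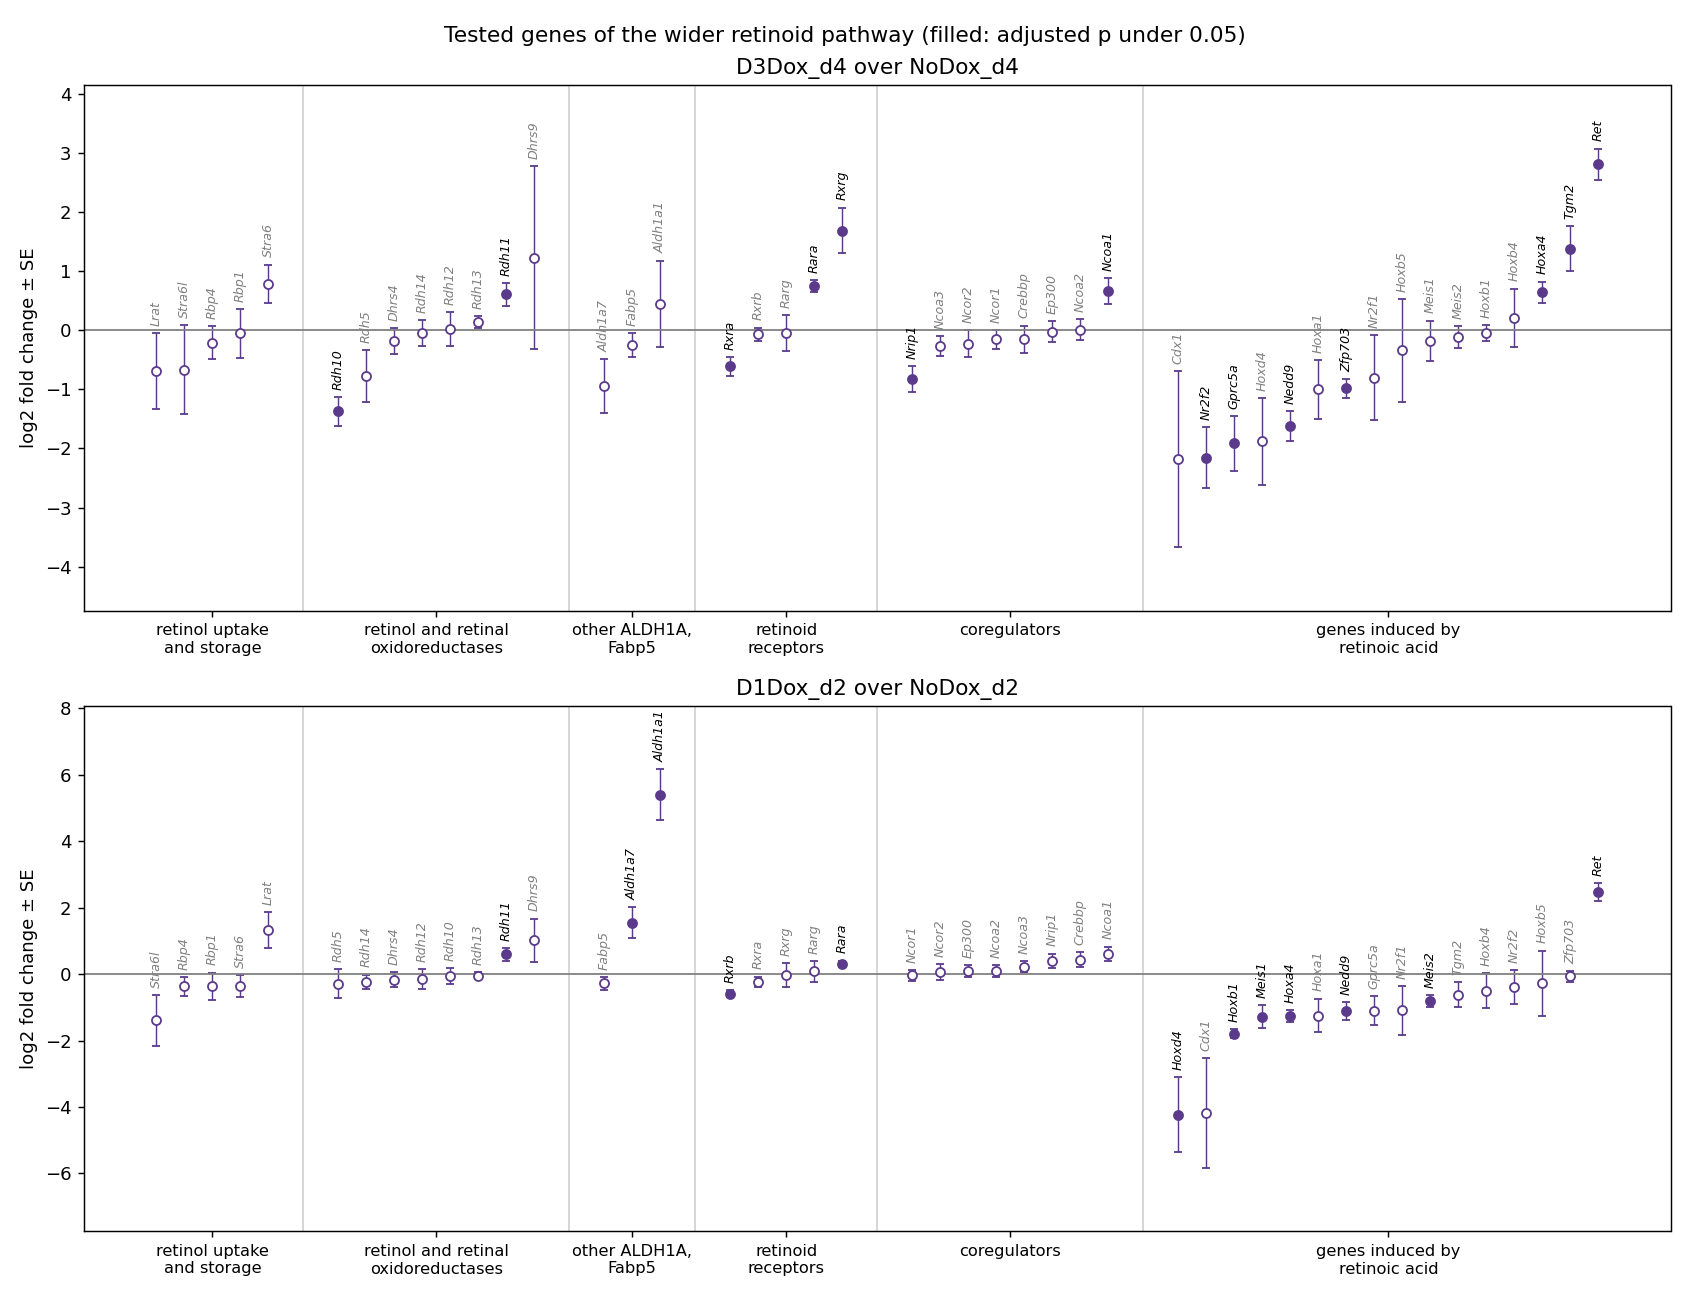
Log2 fold change (vertical axis, points with bars of ± SE) of the tested pathway genes by role, all but 1 of the 46, D3Dox_d4 over NoDox_d4 above and D1Dox_d2 over NoDox_d2 below; filled points have an adjusted p under 0.05. Ret is the highest retinoic acid-induced gene in both panels, and uptake and storage genes have open points in both.

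Between NoDox_d4 and NoDox_d2, 7 of the 46 pathway genes rose and 3 fell (21.7% called, against 10.6% of all tested genes). Nedd9 rose by 1.76 ± 0.26 (edgeR adjusted p = 0.00172) and Ret by 1.16 ± 0.26 (adjusted p = 0.0164). Nrip1 rose by 0.89 ± 0.21 (adjusted p = 0.0219), whereas Fabp5, a fatty acid and retinoic acid carrier, fell by 0.92 ± 0.20 (adjusted p = 0.0138) and Rxrg by 1.55 ± 0.39 (adjusted p = 0.0259). Dhrs9 had 1 count in NoDox_d4 and 31 in NoDox_d2, a ratio of 0.0342 (95% interval 0.000839 to 0.205, counting error only; adjusted p = 0.0274, or 0.0727 without both NoDox replicate 1 libraries). Of these, Ret, Nrip1, Fabp5, Rxrg and Dhrs9 each lost the call without 1 or more single NoDox libraries (adjusted p = 0.0533 to 0.105), and Ret did so in the blocked fit of the 6 NoDox libraries (0.0620).

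Genes with the profile most like each retinoic acid gene were found from the root mean square difference of log2 CPM, centred on each gene's own mean over the 12 libraries, among 11869 genes. The closest match of all was Shisa3 to Dhrs3 (0.22 log2 units). Zic1 (0.58), Msx3 (0.64) and Zic4 (0.68), genes of the dorsal neural tube, came nearest to Cyp26b1. Zic1 averaged 90.6 CPM in D3Dox_d4, 1.95 CPM in D1Dox_d2, 201 CPM in NoDox_d4 and 50.6 CPM in NoDox_d2. Foxd1 (0.53), the Hoxd cluster transcript Haglr (0.55) and Hoxd3 (0.70) came nearest to Aldh1a2. Cyp26a1 was nearest to the Wnt-enhancing secreted factor gene Rspo3 (0.41) and to Gprc5a (0.42), which is itself on the list of retinoic acid-induced genes. Cyp26c1 was nearest to Olig3 (0.76) and the pluripotency gene Nanog (0.84), Aldh1a3 to Rnf128 (0.39) and Wif1 (0.43), and Rarb to Dbx1 (0.71) and Hoxc4 (0.73). Crabp2 was nearest to Rab37 (0.30) and Hoxb2 (0.31), and Crabp1 to Hrk (0.33) and Psph (0.45). Among the 9 themselves, Cyp26a1 and Dhrs3 were the most alike (0.76), then Crabp1 and Crabp2 (0.95), whereas Cyp26a1 and Rarb, the genes with a DR5, differed by 2.40. These likenesses share the 12 libraries, including the replicate 1 pair, and are descriptions.

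**Figure D4:**
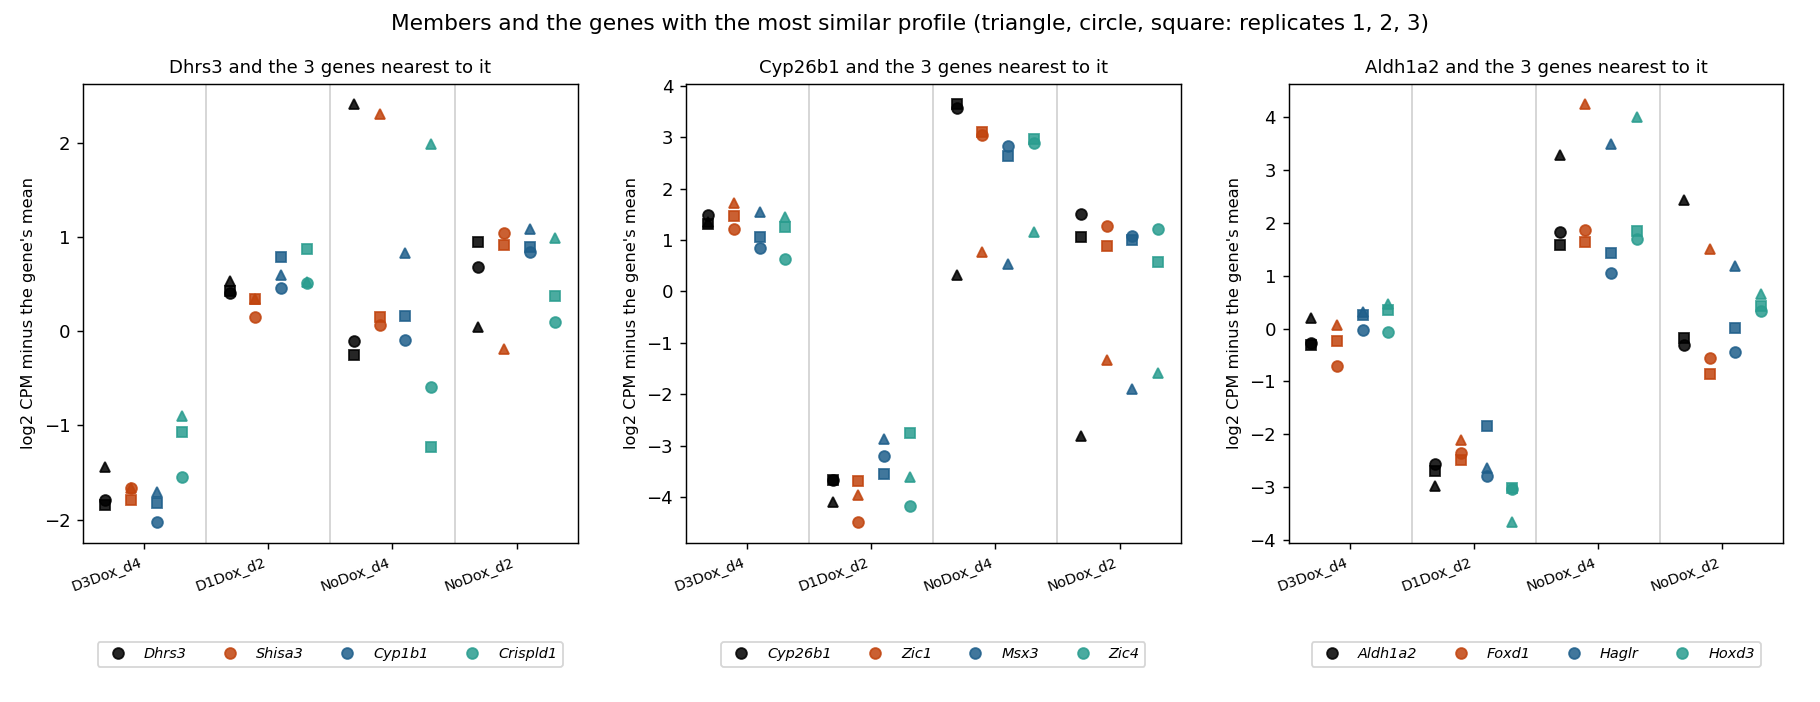
Log2 CPM minus each gene's mean (vertical axis) for Dhrs3, Cyp26b1 and Aldh1a2 in black and for the 3 genes nearest to each in colour, by group, with triangles, circles and squares for replicates 1, 2 and 3. Shisa3 tracks Dhrs3 in both its high NoDox_d4 replicate 1 and its low D3Dox_d4 libraries, and Cyp26b1 and its matches share low D1Dox_d2 libraries and a low NoDox_d2 replicate 1.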

How the data were processed

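Per the labels' protocols, total RNA was extracted and the NEBNext Ultra II RNA kit was used, with 150 bp read pairs from an Illumina HiSeq. Trim Galore kept reads of at least 50 bp, per the same protocols. STAR, featureCounts, DESeq2, GRCm38 and mm10 are named in the submitters' processing notes. Raw counts per gene were deposited by the authors, made with featureCounts 2.0.1 on GENCODE M25 with pairs counted and no strand option, per the file headers. Reads of overlapping opposite-strand genes therefore cannot be told apart.

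Counts of all 12 libraries were fitted in edgeR 4.0.16 (R 4.3.3; TMM scaling, filterByExpr, 1 coefficient per group, no replicate block, 8 residual degrees of freedom, quasi-likelihood F-test), with Benjamini-Hochberg adjustment over the 18109 genes tested and a call at an adjusted p under 0.05. Standard errors were taken as |log2 fold change| over √F. CPM use TMM-scaled library sizes; per-kilobase levels divide by exon length. Gene symbols matched 55141 of 55487 identifiers. The fits were checked on simulated counts. The 9 genes, the pathway and marker lists and the alternatives were chosen with earlier results of these data known. Pathway genes named are the 3 called with the lowest adjusted p in each role and comparison, except 1 not reported here; likeness was computed for genes ranging over at least 3 log2 units, among genes reaching a mean of 5 CPM in some group.

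Same-numbered NoDox_d4 and NoDox_d2 libraries deviated together from their group means (r = 0.545, 0.361 and 0.308). With replicate 1 apart in both groups, centring alone makes the other libraries deviate together, and differently numbered libraries were not compared. These values therefore do not show that the libraries are paired. The replicate number from the labels was tried as a block, and no label gives its source. Promoter windows came from RefSeq, with 7 of the 9 genes matched; Aldh1a3 and Crabp2 had none. Alternatives were DESeq2 1.42.0 (size factors and test), upper-quartile scaling, other filters, the replicate block, the compared libraries alone, thresholds, and omission of libraries.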

Additional observations from a re-analysis of the deposited data

Results flagged for a closer look

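The doxycycline effect on Dhrs3, the retinaldehyde reductase gene, was past the threshold in a test of the difference between days, but that call is not stable, and the test contains the day 2 values that helped to choose the genes. Its log2 difference was −2.995 at day 4 and −0.15 at day 2, and the day 4 effect minus the day 2 effect was −2.84 (SE 0.86, edgeR adjusted p = 0.0493). All 3 D3Dox_d4 libraries lay below all 3 NoDox_d4 libraries, whereas D1Dox_d2 overlapped NoDox_d2. NoDox_d4 replicate 1 stood at 6.11 times the mean of replicates 2 and 3. Without both NoDox replicate 1 libraries the difference was −1.18 (adjusted p = 0.00400). The call was lost without any 1 D3Dox_d4, D1Dox_d2 or NoDox_d2 library (adjusted p = 0.0533 to 0.110) and with the replicate block (0.0789), and it was kept under 9 of 19 alternatives.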

How the results depend on the processing

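Each comparison was repeated under the alternatives named in the methods. Without both NoDox replicate 1 libraries, called retinoic acid genes numbered 8 at day 2, 7 at day 4, 7 for the difference of effects and 6 between NoDox_d4 and NoDox_d2, and called pathway genes 26, 24, 23 and 22, where 53.2%, 38.5%, 34.5% and 24.4% of all genes were called. At an adjusted p under 0.01 the retinoic acid counts were 2 at day 4 and 0 for the difference and for the NoDox comparison, and the pathway counts 7 at day 2, 6 at day 4 and 2 for each of the others, where 13.6%, 12.1%, 3.82% and 4.28% of all genes were called for day 2, day 4, the difference and NoDox. The difference of effects had 4 called retinoic acid genes with no filter (7.03% of all genes), 2 with the DESeq2 test (15.6%) and 0 with the replicate block (13.5%). For the NoDox comparison the replicate block left 1 (10.2% of all genes), the compared libraries alone 0 (1 pathway gene; 1.24%), and both together 4 (11.6%), an alternative chosen after seeing the data. The block ended both Rdh11 calls (edgeR adjusted p = 0.0510 and 0.0574). Deviations of same-numbered doxycycline and NoDox libraries from their group means had r between −0.125 and 0.037. These values cannot decide whether the libraries are paired, because differently numbered libraries were not compared. Nothing is read from the day 2 counts of retinoic acid genes or from those for the difference, which contains the day 2 values.

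Leaving out 1 library at a time gave 4 to 6 called retinoic acid genes at day 2, 2 to 6 at day 4, 0 to 5 for the difference and 1 to 3 for NoDox, and 7 to 18, 10 to 16, 3 to 17 and 4 to 13 pathway genes, while 16.4% to 39.7%, 14.6% to 29.6%, 6.56% to 26.9% and 5.66% to 17.1% of all genes were called. Signs turned only in values that were not called with all libraries. Over the omissions of 1 library the log2 values spanned, at day 4, −0.72 to 0.49 for Aldh1a3, −0.016 to 0.77 for Crabp1 and −0.21 to 0.94 for Rarb; at day 2, −0.38 to 0.056 for Dhrs3; and −0.35 to 0.98 for the Cyp26c1 difference of effects. For NoDox they spanned −0.82 to 0.55 for Cyp26a1, −1.34 to 1.69 for Aldh1a3, −0.59 to 0.43 for Crabp1 and −0.79 to 1.04 for Dhrs3. With the replicate block Aldh1a3 was 0.012 at day 4, and Crabp1 for NoDox was 0.022, or 0.30 in the NoDox libraries alone. Without both libraries numbered 1, the day 4 values were 0.49 for Aldh1a3 and −0.016 for Crabp1, and the NoDox values 0.93 for Aldh1a3 and −1.02 for Dhrs3. The cause was not tested. Cyp26c1 and Rarb rest on few counts, and differences near the limit of 3 counts are not detectable at this depth.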
